A study of Homo sapiens with 8 samples.

Results

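The DNA replication machinery was followed through 47 genes picked by name: 8 genes of origin licensing, 13 of the replicative helicase, 10 of the DNA polymerases, 12 of the clamp, its loader and strand processing, and 4 of nucleotide supply. All 47 were listed under the same identifiers in the gene tables of both rounds of the study, and all 47 were among the 12696 genes that passed the filter on low values, of 45341 genes shared by the tables. POLA2 passed only through the libraries of round 1.

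RNA was sequenced from MDA-MB-231 cells, a human breast cancer line that lacks estrogen, progesterone and HER2 receptors and grows in culture. The 8 libraries formed 6 groups. In round 1, with cells at passage 8, 1-SO UV-A and 1-SO dark had 1 library each, against 1 vehicle UV-A and 1 vehicle dark library. In round 2, with cells at passage 32 to 34, 1-S UV-A and 1-S dark had 1 library each, again against 1 vehicle UV-A and 1 vehicle dark library. 1-SO is (5-oxo-2-dibenzothienylmethyl)triphenylphosphonium. 1-S is the same salt without the oxo group on the ring system. Both were given at 10 µM for 24 h, vehicle cells received 1% DMSO, and UV-A groups were exposed for 30 min to 8 bulbs emitting at 325 to 375 nm. No label describes a genetic change in any group. Irradiated and dark wells stood on separate plates, so light and plate cannot be told apart, and neither can compound, round and passage.

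Before a cell copies its DNA, the origin recognition complex, CDC6 and CDT1 load the ring-shaped MCM helicase onto origins, a step called licensing. In S phase, CDC45 and the GINS complex join the ring to form the active helicase, the polymerases copy the strands behind it with the help of the PCNA clamp, and ribonucleotide reductase and thymidylate synthase supply the building blocks. Many of these genes are transcribed in waves under E2F factors as cells enter S phase, and proliferating tumour lines such as this one express them strongly.

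Library totals were 15.8 to 22.6 M reads, so that the limit a count of 0 allows (3 reads) lay at 0.133 to 0.19 CPM. Of the markers of the line, VIM had 219 to 317 FPKM and AXL 123 to 329 FPKM, while the epithelial gene CDH1 was at no more than 0.0369 FPKM, the estrogen receptor gene ESR1 at no more than 0.0504 and the leukocyte gene PTPRC at no more than 0.116. The luminal markers KRT8, at 47.4 to 222 FPKM, and GATA3, at 2.46 to 3.47 FPKM, were expressed. FPKM, fragments scaled to gene length and library total, is the authors' measure of level. It is set side by side only within a round, because the gene lengths in the tables of the rounds differ.

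Replication genes were low in 1-SO cells that had been irradiated and in 1-S cells under either light, and near the vehicle level in 1-SO cells kept dark. As a percentage of the FPKM of the dark vehicle library of the same round, the median of the 47 genes was 49% in 1-SO UV-A, 94.7% in 1-SO dark and 73.4% in vehicle UV-A of round 1. In round 2 the median was 62.2% in 1-S UV-A, 59% in 1-S dark and 107% in vehicle UV-A. In bulk RNA, fewer cells in S phase and less of these RNAs per cell cannot be told apart.

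**Figure D1:**
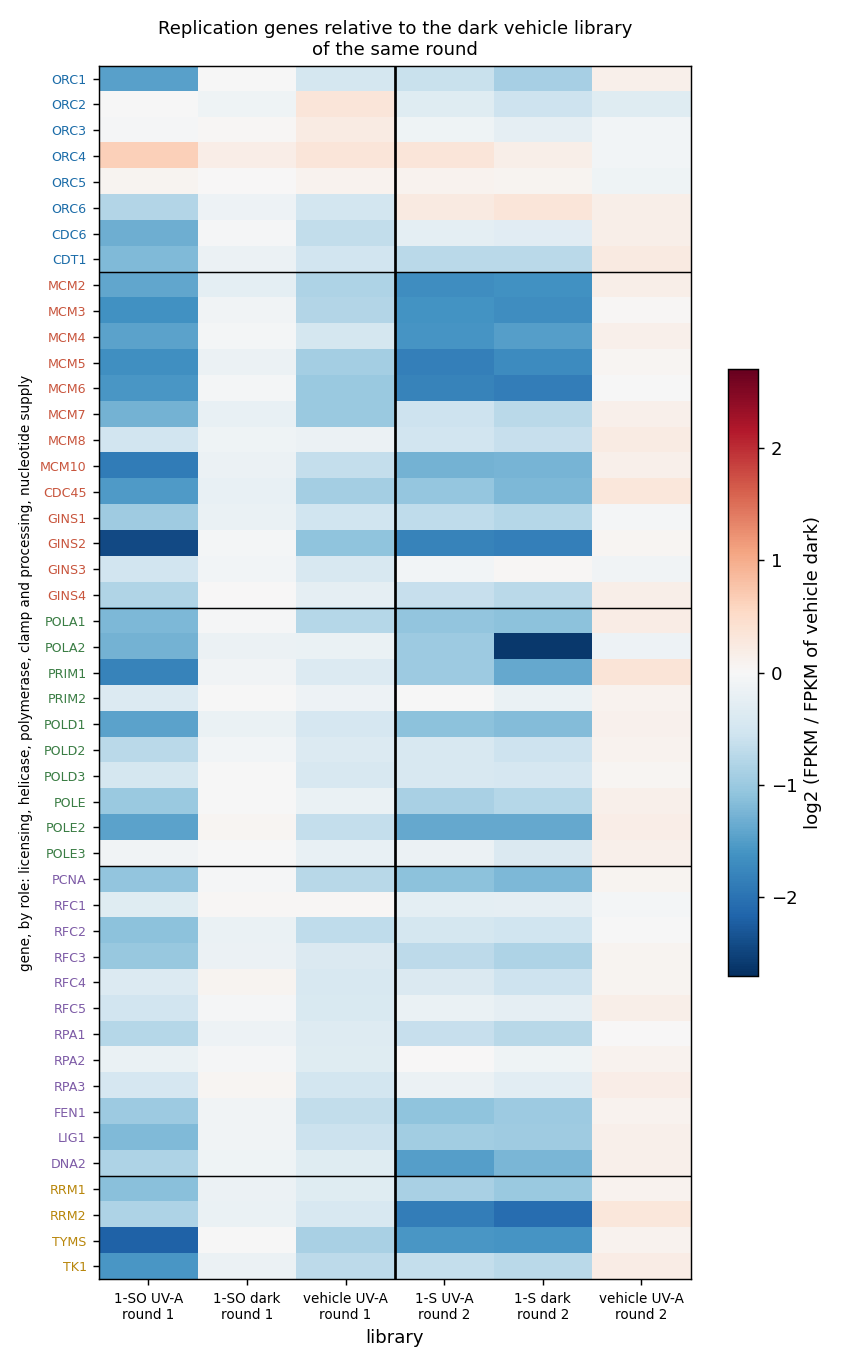
Log2 of the FPKM of each of the 47 genes (rows, by role) over that of the dark vehicle library of the same round, in the 6 other libraries (columns, round 1 left of the thick line). The column of 1-SO UV-A and those of 1-S UV-A and 1-S dark are blue for most genes, with medians of 49%, 62.2% and 59% of vehicle dark, while 1-SO dark is pale at 94.7%.

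The promoters of these genes are shown because the genes moved together. RefSeq windows on GRCh38.p14, from 250 bases before to 50 bases after a start, were found for 40 of the 47 genes, 52 windows in all. The E2F motif was searched on both strands in the 4 forms TTTCCCGC, TTTCGCGC, TTTGCCGC and TTTGGCGC. At least 1 form was present in 19 windows of the replication genes (36.5%), against 1164 of 35116 windows of all genes (3.31%) and 4.95% of the windows of genes tested. Helicase genes had it in 8 of 14 windows. The NF-Y motif CCAAT was present in 29 of the 52 windows (55.8%), against 34.6% of all windows. These matches describe letters in a window, not bound sites. Printed 5′ to 3′ on the strand of the gene with E2F forms in capitals, the 160 bases before the RefSeq start are given for the helicase gene MCM6, the clamp gene PCNA and the catalytic subunit genes POLA1 and POLE, and for ORC4, a gene with no form, chosen as a contrast after its values were seen.
MCM6 (chr2:135876444-135876603, minus strand): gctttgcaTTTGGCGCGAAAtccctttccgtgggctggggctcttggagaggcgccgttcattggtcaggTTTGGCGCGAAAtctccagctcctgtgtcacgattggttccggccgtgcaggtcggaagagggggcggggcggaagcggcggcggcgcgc
PCNA (chr20:5126623-5126782, minus strand): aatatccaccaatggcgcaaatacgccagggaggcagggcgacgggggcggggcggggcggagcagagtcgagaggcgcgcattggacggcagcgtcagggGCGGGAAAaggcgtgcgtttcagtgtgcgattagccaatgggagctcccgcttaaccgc
POLA1 (chrX:24693758-24693917, plus strand): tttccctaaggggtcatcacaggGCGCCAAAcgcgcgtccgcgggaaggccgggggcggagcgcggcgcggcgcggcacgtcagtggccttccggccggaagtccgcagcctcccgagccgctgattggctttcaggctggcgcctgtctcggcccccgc
POLE (chr12:132687343-132687502, minus strand): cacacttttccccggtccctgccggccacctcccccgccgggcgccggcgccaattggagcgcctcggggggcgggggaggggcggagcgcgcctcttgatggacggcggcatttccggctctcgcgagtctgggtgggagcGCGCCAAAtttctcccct
ORC4 (chr2:148020738-148020897, minus strand): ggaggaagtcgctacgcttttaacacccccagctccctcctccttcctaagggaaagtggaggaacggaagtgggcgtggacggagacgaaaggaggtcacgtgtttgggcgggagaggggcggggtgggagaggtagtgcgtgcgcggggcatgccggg
In MCM6 each capital run holds 2 forms that overlap on opposite strands, at positions -152 and -148, and again at -90 and -86, counted from the start. Shorter stretches of 28 bases around the form are shown for the helicase gene GINS2 and for TYMS, the steepest falls of their roles under UV-A in 1-SO, and for the licensing gene CDT1.
GINS2 (chr16:85688968-85688995, minus strand): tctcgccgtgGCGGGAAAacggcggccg
TYMS (chr18:657604-657631, plus strand): cgggacggccGCGGGAAAaggcgcgcgg
CDT1 (chr16:88803744-88803771, plus strand): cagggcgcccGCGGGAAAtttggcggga
All 3 carry the same letters, GCGGGAAA, at positions -31 (GINS2), -39 (TYMS) and -35 (CDT1) from the RefSeq start. By the gene coordinates used here, these 3 stretches and the 160 bases of ORC4 lie inside the span of the gene, not before it. The printed windows of PCNA, POLE and ORC4 hold 4, 23 and 26 exon bases of their own gene in GENCODE v29. Genes with and without a form fell. ORC3 and GINS3, called in neither UV-A in 1-SO nor 1-S over both lights, had a form, while ORC1, MCM10, CDC45, PRIM1, POLD1, POLD2, RFC2, RPA1, FEN1, RRM1, RRM2 and TK1, called lower in both, had none in their windows.

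Whether light alone lowered these genes was asked in vehicle cells, with 1 pair of libraries per round. Over both rounds edgeR's quasi-likelihood test called 0 of 47 members and 0% of all genes tested, at an adjusted p under 0.05. DESeq2 and limma also called 0 members. By edgeR 9 members had an unadjusted p under 0.05, as had 348 of all 12696 genes tested. The rounds differed in direction. Read against the dark vehicle of its own round, the median log2 fold change was -0.51 in round 1, with 43 of 47 genes below 0, and 0.12 in round 2, with 39 of 47 above 0. MCM5, MCM6 and MCM7, subunits of the ring, were called lower in round 1 by edgeR's likelihood ratio test with the dispersions of the 8-library model (3 of 47, with 0 higher, where 0.291% of all genes were called lower and 0.126% higher), and 0 were called in round 2. The difference between the rounds, with a median of -0.69, was called for 0 of 47 members. MCM6 had 19.6 FPKM in vehicle UV-A against 39.1 FPKM in vehicle dark of round 1, and 30.5 FPKM against 30.6 FPKM in round 2. PCNA, the sliding clamp, had 114 FPKM against 193 FPKM in round 1, and 191 FPKM against 182 FPKM in round 2.

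In 1-SO cells kept dark these genes lay near the vehicle level. edgeR called 0 of 47 members and 0% of all genes for 1-SO dark over vehicle dark, and DESeq2 and limma called 0 members. By edgeR 0 members had an unadjusted p under 0.05, where 26 of all 12696 genes tested had. Against vehicle dark of its own round the median log2 fold change was -0.10, with a range of -0.27 to 0.16.

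UV-A in 1-SO cells, the comparison of 1-SO UV-A with 1-SO dark, lowered 33 of the 47 genes and raised 0 (edgeR's quasi-likelihood test, adjusted p under 0.05), where 9.21% of all genes tested were called lower and 5.57% higher. The median log2 fold change was -1.06, a ratio of 0.481, against 0.00056 over all genes tested. The calls took in 11 of 13 helicase genes, 7 of 10 polymerase genes, all 4 nucleotide supply genes, 7 of 12 clamp and processing genes and 4 of 8 licensing genes. Each compound group had 1 library, so the spread behind each p of the 8-library model came from the vehicle libraries of the rounds and no spread between compound wells entered it. DESeq2 called 16 members lower, where 3.28% of all genes were, and 0 higher. A fit without the term for round called 0 in either direction.

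Among licensing genes, the largest subunit gene of the origin recognition complex, ORC1, had 4.45 FPKM in 1-SO UV-A, 12.2 in 1-SO dark, 8.91 in vehicle UV-A and 12.3 in vehicle dark. The irradiated 1-SO library was the lowest of the 4, and edgeR gave a log2 fold change for UV-A in 1-SO of -1.58 ± 0.27 (SE, adjusted p = 0.00016). CDC6, an ATPase that helps to load the helicase onto origins, had 21.7, 52.7, 34.0 and 54.0 FPKM in the same order of libraries. Its log2 fold change was -1.40 ± 0.23 (adjusted p = 0.00011, edgeR). CDT1, which escorts the MCM ring to origins, stood at 9.71, 19.9, 15.6 and 22.3 FPKM, again lowest in 1-SO UV-A. ORC6, the smallest subunit, was also called lower, by 0.78. The other origin subunits behaved differently: ORC2 had 6.14 FPKM in 1-SO UV-A, 5.67 in 1-SO dark, 7.73 in vehicle UV-A and 6.17 in vehicle dark, with a log2 fold change of -0.012 ± 0.26 (adjusted p = 0.98, edgeR). ORC4 was the single member above 0, at 15.7 FPKM in 1-SO UV-A against 11.4 in 1-SO dark, and its log2 fold change of 0.34 ± 0.22 did not pass (adjusted p = 0.31, edgeR). Within the origin recognition complex, ORC1 and ORC6 were thus called lower, while ORC2, ORC3, ORC4 and ORC5 did not pass.

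Helicase genes held the steepest fall. GINS2, a subunit of the GINS complex that bridges the ring and polymerase epsilon (chr16:85676198-85690073 on GRCh38), had 2.44 FPKM in 1-SO UV-A, 12.6 in 1-SO dark, 6.22 in vehicle UV-A and 13.2 in vehicle dark. Its log2 fold change for UV-A in 1-SO was -2.49 ± 0.33 (adjusted p = 7e-06, edgeR). MCM10, which helps to activate the helicase, had 6.15, 20.5, 14.5 and 22.7 FPKM in the same order, and a log2 fold change of -1.86 ± 0.24 (adjusted p = 4.4e-06, edgeR). Both genes were lowest in 1-SO UV-A, next lowest in vehicle UV-A and close together in the dark libraries. The 6 ring genes MCM2 to MCM7 were all called lower, by 1.20 (MCM7) to 1.66 (MCM3) on the log2 scale. MCM6 had 13.2 FPKM in 1-SO UV-A, 37.6 in 1-SO dark, 19.6 in vehicle UV-A and 39.1 in vehicle dark. MCM8, which forms a helicase with MCM9 that acts in repair, had the smallest change of this role: 11.3, 15.0, 14.5 and 16.2 FPKM, and -0.53 ± 0.21 (adjusted p = 0.089, edgeR). GINS3 also did not pass, at -0.56 ± 0.29 (adjusted p = 0.21, edgeR), while the GINS complex genes GINS1, GINS2 and GINS4 did.

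Among polymerase genes, PRIM1, the catalytic subunit of primase, had 3.68 FPKM in 1-SO UV-A, 11.9 in 1-SO dark, 9.94 in vehicle UV-A and 12.8 in vehicle dark, with a log2 fold change for UV-A in 1-SO of -1.82 ± 0.35 (adjusted p = 0.00075, edgeR). POLE2, a subunit of the leading-strand polymerase epsilon, had 6.68, 18.7, 11.6 and 18.2 FPKM in the same order, and -1.61 ± 0.29 (adjusted p = 0.00036, edgeR). In both the irradiated 1-SO library was the lowest of the 4. Catalytic subunits were among the genes called lower: POLA1, of the polymerase that starts strands, by 1.32, POLD1 of polymerase delta by 1.40 and POLE of polymerase epsilon by 1.13. POLE3, a histone-fold subunit of polymerase epsilon that also serves in chromatin remodelling, had 44.4, 47.2, 41.8 and 47.8 FPKM and a log2 fold change of -0.21 ± 0.20 (adjusted p = 0.51, edgeR). PRIM2 and POLD3 did not pass either, at -0.48 and -0.59.

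Among the clamp and processing genes, with a median of -0.79, LIG1, the ligase that seals Okazaki fragments, had 7.80 FPKM in 1-SO UV-A, 16.6 in 1-SO dark, 11.8 in vehicle UV-A and 17.8 in vehicle dark, and a log2 fold change of -1.22 ± 0.23 (adjusted p = 0.00064, edgeR). PCNA had 92.1 FPKM in 1-SO UV-A, 188 in 1-SO dark, 114 in vehicle UV-A and 193 in vehicle dark, and -1.16 ± 0.23 (adjusted p = 0.001, edgeR). Both irradiated libraries lay below both dark ones for these genes. RPA2, a subunit of the single-strand binding protein RPA, had 50.4, 55.3, 45.6 and 56.9 FPKM and a log2 fold change of -0.26 ± 0.20 (adjusted p = 0.43, edgeR), and was lowest in vehicle UV-A. DNA2, a nuclease and helicase that trims flaps, had 3.85, 6.33, 5.50 and 6.87 FPKM and was called at -0.84 ± 0.26 (adjusted p = 0.028, edgeR), which DESeq2 and limma did not call. Of the clamp loader genes, RFC2 and RFC3 passed and RFC1, RFC4 and RFC5 did not.

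All 4 nucleotide supply genes fell under UV-A in 1-SO. TYMS, thymidylate synthase (chr18:657604-673578), had 13.0 FPKM in 1-SO UV-A, 58.2 in 1-SO dark, 32.0 in vehicle UV-A and 58.8 in vehicle dark, and a log2 fold change of -2.29 ± 0.27 (adjusted p = 1.5e-06, edgeR). Reads of TYMS are uncertain in part in both rounds, because the sources used here give no strand setting for the counting. In GENCODE v29, 39.1% of its exon bases are shared with ENOSF1 and 7.41% with TYMSOS, both on the opposite strand. As listed by the authors, ENOSF1 covers 6.49% of the TYMS span in round 1 and 20.4% in round 2. TK1, the thymidine kinase of the salvage route, had 34.8, 92.8, 63.1 and 103 FPKM and -1.54 ± 0.24 (adjusted p = 5.6e-05, edgeR; not called by DESeq2). RRM2, the regulatory subunit of ribonucleotide reductase (chr2:10122328-10131419), had 44.8, 70.7, 59.2 and 80.0 FPKM, the smallest change of the 4 at -0.78 ± 0.22 (adjusted p = 0.016, edgeR; not called by DESeq2). Its partner RRM1 fell by 1.11.

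**Figure D2:**
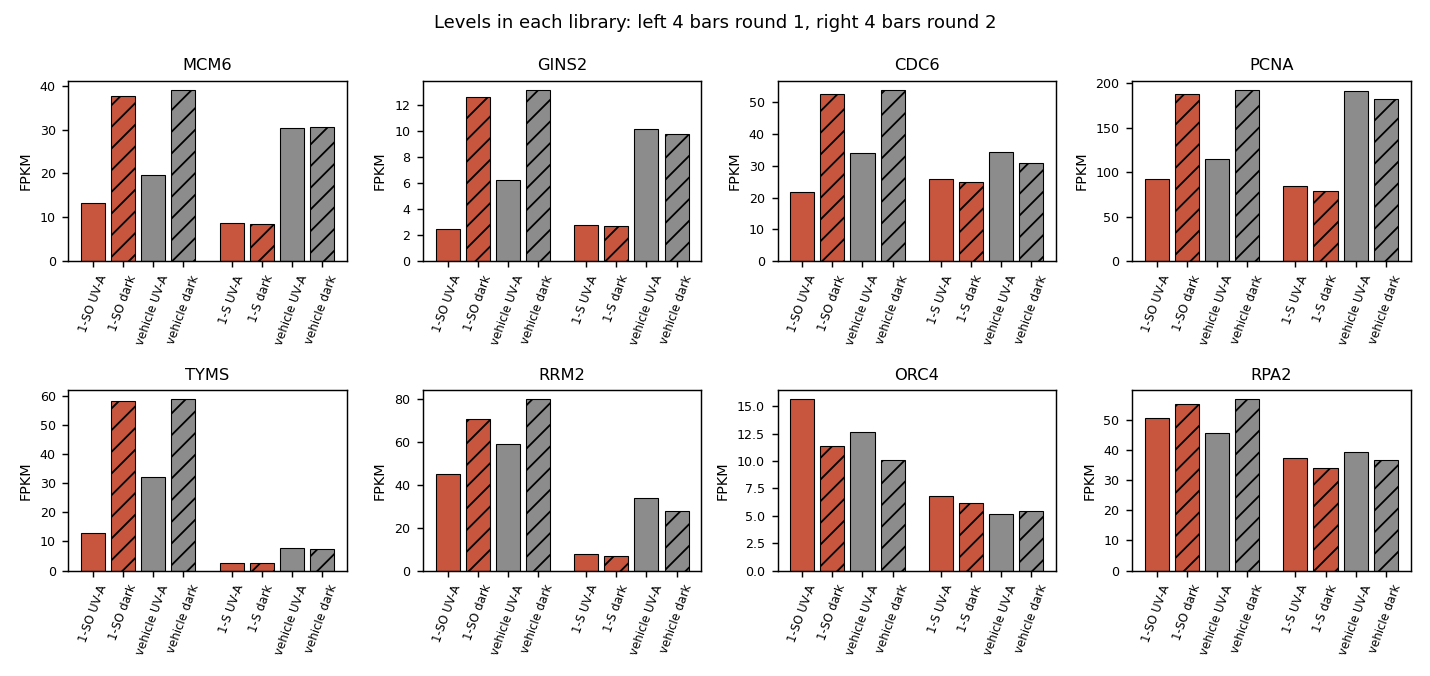
FPKM (vertical axis, from 0) of 8 genes in each of the 8 libraries, 1 bar per library, with round 1 left and round 2 right in each panel. Red bars are compound and grey bars vehicle libraries, and hatching marks dark libraries. Bars are to be read within a round only, because gene lengths differ between the rounds. For MCM6, GINS2, CDC6, PCNA and TYMS the hatched 1-SO bar stands near vehicle dark of round 1 and the plain 1-SO bar far below it. Both 1-S bars of MCM6, GINS2, PCNA, TYMS and RRM2 are far below the vehicle bars of round 2. ORC4 and RPA2 show no such drop.

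How far the fall exceeded what UV-A did to vehicle cells depended on which vehicle was used. Under UV-A, 1-SO over vehicle UV-A was called lower for 28 of 47 genes and higher for 0 in the 8-library model (edgeR, median log2 fold change -0.74), where 7.04% of all genes were called lower and 4.47% higher. That model shares 1 vehicle light response between the rounds. Set against the irradiated vehicle of round 1 alone, 15 of 47 were called lower by the likelihood ratio test (median -0.53), where 4.92% of all genes were. These 15 were ORC1, CDC6, CDT1, MCM3, MCM4, MCM5, MCM10, GINS2, POLA2, PRIM1, POLD1, POLE, RRM1, TYMS and TK1. None of the 12 clamp and processing genes was among them, against 4 in the shared model. In the authors' deposited table of this pair 0 members had an adjusted p under 0.05, where 0.155% of the genes listed were called lower.

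The interaction of UV-A with 1-SO, that is the light response in 1-SO minus that in vehicle cells, was called negative for 17 of 47 genes in the 8-library model and positive for 0, where 2.9% of all genes were called negative and 1.47% positive. It was called for 1 gene, TYMS, against the vehicle libraries of round 1 (log2 -1.35 ± 0.39, adjusted p = 0.039, edgeR's likelihood ratio test), where 1.13% of all genes were called negative and 0.543% positive. The median over the members was -0.79 in the shared model and -0.44 within round 1. Over both treatments of round 1, UV-A lowered 25 of 47 genes (median -0.76) and raised 0, where 2.97% of all genes were called lower and 1.09% higher. In round 2 the same average, which was not planned, was called for 0 of 47 genes in either direction (median 0.10). There 51 of all 12696 genes were called lower and 3 higher. 1-SO over both lights was called for 0 of 47 by edgeR (0% of all genes), with a median of -0.35. An unadjusted p under 0.05 by edgeR was reached by 19 members, and by 770 of all 12696 genes tested. Set against vehicle dark, 1-SO UV-A was lower for 33 of 47 genes and higher for 0 (median -1.04), where 9.83% of all genes were called lower and 6.25% higher. With vehicle dark of round 1 alone it was lower for 35 and higher for 0 (median -1.18), where 11.4% and 8.13% of all genes were. In the authors' deposited table of that pair 14 members were called lower, where 1.09% of listed genes were, with GINS2 at an adjusted p of 1.7e-05.

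1-S lowered the replication genes under both lights. Over both light conditions of round 2, 1-S over vehicle was called lower for 40 of 47 genes and higher for 1, ORC4, by edgeR's quasi-likelihood test (median log2 fold change -0.86, ratio 0.552). In that comparison 30.1% of all genes were called lower and 30% higher, so calls were frequent over all genes. The spread in that fit is the departure from a common compound change under both lights, with 1 residual degree of freedom moderated by 138. The calls took in 12 of 13 helicase, 9 of 10 polymerase, 11 of 12 clamp and processing, 4 of 4 nucleotide supply and 4 of 8 licensing genes. By light, the 8-library model called 36 lower in 1-S dark over vehicle dark (median -1.01, where 15% of all genes were) and 27 in 1-S UV-A over vehicle UV-A (median -0.72, where 13.7% were), and the counts against the vehicle libraries of round 2 were 32 (12.2%) and 30 (14.6%). Within 1-S cells, 0 of 47 were called by edgeR, DESeq2 or limma for 1-S UV-A over 1-S dark (0% of all genes by edgeR). The median was 0.072, and 1 member had an unadjusted p under 0.05 by edgeR, where 307 of all 12696 genes tested had.

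Averaged over both lights of round 2, the largest fall was that of RRM2, with 7.59 FPKM in 1-S UV-A and 6.63 in 1-S dark, against 34.1 in vehicle UV-A and 27.7 in vehicle dark. Both 1-S libraries lay far below both vehicle libraries, and 1-S over both lights gave a log2 fold change of -2.17 ± 0.093 (adjusted p = 1.6e-47, edgeR). RRM2 also had the smallest member p in the authors' deposited tables of 1-S dark over vehicle dark (adjusted p = 0.00015) and of 1-S UV-A over vehicle UV-A (adjusted p = 5.1e-05). These called 10 and 12 members lower, where 0.421% and 0.532% of listed genes were. Each lists 58676 genes, against 12696 tested here, so the shares rest on a wider set of genes. GINS2 had 2.78 FPKM in 1-S UV-A and 2.72 in 1-S dark, against 10.2 in vehicle UV-A and 9.75 in vehicle dark (log2 -1.91 ± 0.14, adjusted p = 3.3e-26, edgeR). MCM6 had 8.71 and 8.43 FPKM in 1-S, against 30.5 and 30.6 FPKM in vehicle, a log2 fold change of -1.89 ± 0.092. For both helicase genes each 1-S library lay below both vehicle libraries, with 1 library per light. How many of all genes did so was not counted.

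TYMS had 2.48 FPKM in 1-S UV-A and 2.45 in 1-S dark, against 7.87 in vehicle UV-A and 7.34 in vehicle dark (log2 -1.68 ± 0.17). DNA2 had 2.92 and 3.48 FPKM in 1-S, against 9.01 and 8.21 FPKM in vehicle (log2 -1.48 ± 0.12), the largest fall of the clamp and processing genes. PCNA had 84.9 and 78.4 FPKM in 1-S, against 191 and 182 FPKM in vehicle. CDT1 had the largest fall of the licensing genes, with 12.5 and 12.4 FPKM in 1-S, against 24.2 and 20.5 FPKM in vehicle (log2 -0.90 ± 0.094). ORC1 had 6.51 and 5.34 FPKM against 10.9 and 9.87 FPKM, and CDC6 moved less, with 25.9 and 25.0 FPKM in 1-S, against 34.3 and 30.9 FPKM in vehicle (log2 -0.41 ± 0.087). PRIM1, POLE2, LIG1, TK1, MCM10, MCM8, ORC2 and POLE3 were also called lower, by 1.40, 1.53, 1.06, 0.84, 1.39, 0.74, 0.34 and 0.39 on the log2 scale. RPA2 did not pass, with 37.3 and 34.2 FPKM in 1-S against 39.3 and 36.8 FPKM in vehicle. ORC4 was higher, with 6.83 and 6.15 FPKM in 1-S against 5.19 and 5.47 FPKM in vehicle (log2 0.23 ± 0.10, adjusted p = 0.032, edgeR).

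POLA2, the accessory subunit of the polymerase that starts strands, had 2.73 FPKM in 1-SO UV-A and 5.93 in 1-SO dark, against 5.89 in vehicle UV-A and 6.64 in vehicle dark, and was called lower under UV-A in 1-SO, at -1.25 ± 0.32 (adjusted p = 0.0081, edgeR; not called by DESeq2). In round 2 it had 0.247 FPKM in 1-S UV-A and 0.080 in 1-S dark, against 0.442 in vehicle UV-A and 0.488 in vehicle dark, the largest fall of the polymerase genes with 1-S (log2 -1.63 ± 0.41). Those values rest on few reads: 27 in 1-S UV-A and 10 in 1-S dark, against 55 in vehicle UV-A and 63 in vehicle dark. It had 227 in 1-SO UV-A and 395 in 1-SO dark, against 349 in vehicle UV-A and 467 in vehicle dark of round 1. The round 2 table lists a gene on the same strand, AP000944.2, whose span covers 99.6% of POLA2. The table of round 2 also lists AC007240.1 over 95.5% of RRM2 and AC117378.1 over 47.8% of PRIM1, on the same strand. The part of these listings in the counts was not tested.

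**Figure D3:**
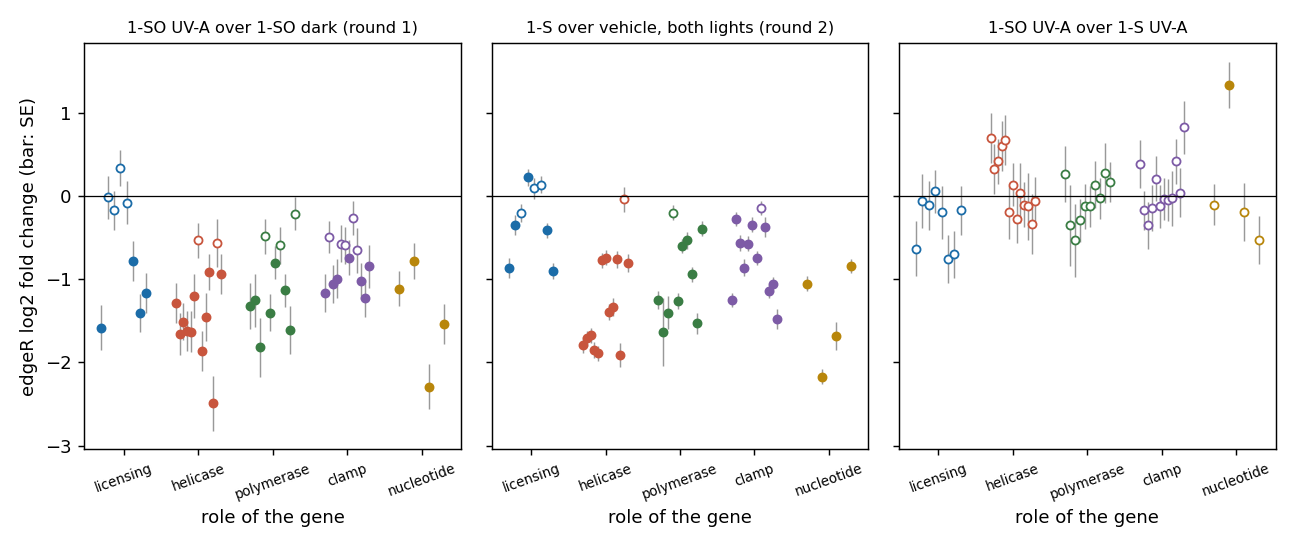
edgeR log2 fold change (vertical axis, bars show SE) of each of the 47 genes by role in 3 comparisons, with filled points for genes called at an adjusted p under 0.05 and open points for the rest. In the left panel 33 genes are called lower, in the middle panel 40 lower and 1 higher, and in the right panel, where the change over vehicle UV-A is compared between compounds, RRM2 alone is called.

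UV-A in 1-SO and 1-S over both lights are comparisons that share no library. Of the 33 genes lower under UV-A in 1-SO, 32 (97%) were also lower in 1-S, which is 80% of the 40 lower in 1-S. Of all 47 genes, 85.1% were lower in 1-S. The same overlap over all genes tested was not counted, so whether it is particular to the members is not shown. ORC6 was lower in 1-SO and not in 1-S, at 12.9 and 13.8 FPKM in 1-S UV-A and 1-S dark, against 12.3 and 10.96 FPKM in vehicle UV-A and vehicle dark. MCM8, ORC2, POLD3, POLE3, RFC1, RFC4, RFC5 and RPA3 were called in 1-S alone, and GINS3, ORC3, ORC4, ORC5, PRIM2 and RPA2 were called lower in neither. Whether the changes differ between these comparisons was not tested. Across the 47 genes the changes correlated at Pearson's r = 0.77 and Spearman's rho = 0.81, against 0.56 and 0.65 over all 12696 genes tested, a description across genes, which are not independent.

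**Figure D4:**
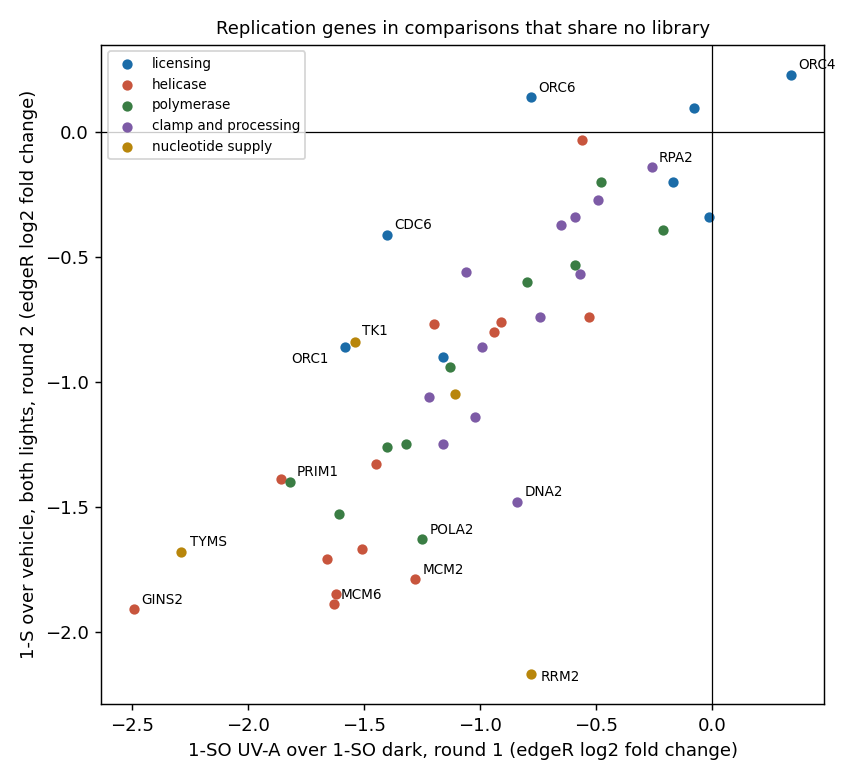
Log2 fold change of UV-A in 1-SO (horizontal axis, round 1) against that of 1-S over both lights (vertical axis, round 2) for the 47 genes, coloured by role. GINS2 and TYMS lie at the lower left, RRM2 below the rest, at -0.78 and -2.17, and ORC4 at the upper right, at 0.34 and 0.23 (r = 0.77, n = 47 genes).

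1-SO and 1-S, which differ by the oxo group, were compared at the same dose and time, each against vehicle, as 1 pair of compounds under 2 light conditions, with p-values adjusted over all genes tested in each. In the dark, 32 of 47 genes were higher with 1-SO than with 1-S and 0 lower in the 8-library model (median log2 difference 1.00), where 8.4% of all genes were called higher and 8.78% lower. Against the vehicle library of each round, 14 were called higher (median 0.68, where 3.95% of all genes were): MCM2, MCM3, MCM4, MCM5, MCM6, MCM10, GINS2, POLA2, POLD1, POLE2, PCNA, DNA2, RRM2 and TYMS. The difference was 2.36 ± 0.30 for MCM6 in the shared model and 1.82 ± 0.37 against the vehicle of each round (adjusted p = 3.2e-06 and 5.2e-05, edgeR). For RRM2 it was 2.31 ± 0.28 and 1.90 ± 0.34.

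Under UV-A the compounds differed for 1 of 47 genes: RRM2 was higher with 1-SO than with 1-S, by 1.34 ± 0.28 on the log2 scale (95% interval 0.77 to 1.91, adjusted p = 0.0043, edgeR), where 1.28% of all genes were called higher and 2.27% lower. Against the vehicle of each round RRM2, MCM2 and MCM6 were higher, by 1.75, 1.24 and 1.23 (0.945% of all genes called higher). For the other 46 genes the 8-library model made no call, and 41 of 47 intervals contained 0, which does not show that the compounds act alike. The difference was -0.12 for GINS2 (95% interval -0.95 to 0.71), -0.19 for TYMS (-0.92 to 0.53), -0.026 for POLE (-0.53 to 0.48) and 0.39 for PCNA (-0.20 to 0.97). For CDC6 the interval lay below 0, at -1.28 to -0.13, with an adjusted p of 0.2 by edgeR. The structural change cannot be told apart from the round and the passage in either comparison.

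Fork and origin, nucleotide and chromatin genes of the pathway moved with the members more often than genes of damage-tolerant synthesis did. Of 24 tested fork and origin factors, 12 fell under UV-A in 1-SO and 18 with 1-S over both lights, and 0 rose in either. Claspin (CLSPN), which carries the checkpoint signal at forks, had 9.93 FPKM in 1-SO UV-A, 25.1 in 1-SO dark, 19.1 in vehicle UV-A and 26.6 in vehicle dark, a log2 fold change of -1.46 ± 0.23 for UV-A in 1-SO, and -1.33 ± 0.094 for 1-S. Of 10 nucleotide enzymes, 5 fell under UV-A in 1-SO and all 10 with 1-S. RRM2B, the p53-inducible subunit of ribonucleotide reductase, had 0.37 ± 0.21 under UV-A in 1-SO (adjusted p = 0.24, edgeR) and fell by 0.57 with 1-S. Of 10 tested chromatin factors that act at the fork, 8 fell under UV-A in 1-SO and 9 with 1-S, among them CHAF1B, of the histone chaperone CAF-1, by 1.72 and 1.55. Of 7 genes of damage-tolerant synthesis 1 fell under UV-A in 1-SO, RAD18, the ubiquitin ligase that modifies PCNA, by 0.85, while 4 fell and 2, POLK and REV3L, rose with 1-S. The backgrounds are those given for the same comparisons above, 9.21% and 30.1% of all genes called lower, and 5.57% and 30% called higher.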

How the data were processed

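RNA of 8 libraries was measured. The authors' deposited tables hold read counts per gene, whole numbers that are not normalized, with a column for each library, per the file headers. FPKM in the deposited tables came from these counts, the listed gene length and the library total: the values were computed again and differed by at most 0.0756%. Deposited gene lengths are of another kind per the file headers (bases per gene) and were used for that check and to describe overlapping listings. The authors' deposited comparison tables, 9 in all, give log2 fold changes per the file headers, and p-values of the authors, raw and adjusted, made by a method that the sources used here do not name. They list 23188 to 58676 genes, so shares of listed genes rest on a wider set than the 12696 genes tested here. Tools listed in the submitters' processing notes, without roles, are DESeq2, edgeR 3.16.5, STAR-Fusion, TopHat, HTSeq 0.6.1 and STAR 2.5, beside the builds hg38 and hg19. Poly-A RNA was selected, per the labels' protocols.

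The 47 genes and every gene list were chosen with earlier results of these data known. Genes were tested (12696) where 2 or more libraries reached an FPKM of 1. The test was edgeR 4.0.16's quasi-likelihood test in R 4.3.3, with TMM factors within each round and terms for the round, for UV-A in vehicle and for every compound library. It left 1 residual degree of freedom, to which moderation added 26, at a biological coefficient of variation of 12%. Tests were two-sided, and calls were made at 0.05 after Benjamini-Hochberg adjustment over all genes tested. The labels tie the number of a vehicle library to its round, so the round was a block: same-round vehicle libraries deviated together at r = 0.847 over genes. Values against the vehicle of the same round came from a fit with 1 term per library and a likelihood ratio test with the dispersions of the shared model. The within-round averages were fitted on the 4 libraries of a round, with 1 residual degree of freedom. The comparisons of vehicle light per round and of 1-SO UV-A with vehicle dark were added after values were seen. Nothing says that libraries came from separate cultures, so p-values measure the spread between these libraries. Counting limits cover counting error only. Alternatives were DESeq2 1.42.0, its size factors, limma 3.58.1 on log2(FPKM + 1), no filter, no block, the vehicle of the same round, leaving out each vehicle library and, for ratios, a pseudocount of 0.1 in place of 1. Genes given in every library were, in each role, the largest 2 and the smallest change of UV-A in 1-SO and the largest of 1-S, and MCM6, ORC4 and ORC6 were added after their values were seen. Coordinates of genes are those of the round 2 table (GRCh38), 45 of 47 as in GENCODE v29.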

Additional observations from a re-analysis of the deposited data

Results flagged for a closer look

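The light response in 1-SO cells was lower than that in vehicle cells for 17 of the 47 genes by the fitted interaction (2.9% of all genes), a difference between groups that was tested by edgeR's quasi-likelihood test. With the vehicle libraries of round 1 alone, the interaction was called for 1 of the 47 genes, TYMS, at -1.35 on the log2 scale. In that comparison 1.13% of all genes were called negative and 0.543% positive. Reads of TYMS are uncertain in part, as said above. In the dark, 32 of the 47 genes differed between 1-SO and 1-S, all higher with 1-SO, where 8.4% of all genes were called higher. The count was 14 with the vehicle of each round (3.95% of all genes) and 12 by DESeq2 (2.61%). Under UV-A 1 of the 47 genes differed, RRM2, at 1.34 on the log2 scale, where 1.28% of all genes were called higher and 2.27% lower. These were picked out because the effects of the groups differed by a test of the difference itself. Compound, round and passage cannot be told apart in the comparisons of 1-SO with 1-S.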

How the results depend on the processing

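Without the replicate block for round, 0 members were called in each comparison of the 8-library model, against 28 for 1-SO UV-A over vehicle UV-A, 33 for UV-A in 1-SO, 36 and 27 for 1-S dark and 1-S UV-A, 17 for the interaction, and 32 and 1 for 1-SO over 1-S in the dark and under UV-A. That fit puts the difference between rounds into the spread. DESeq2 called 10 for 1-SO UV-A (2.69% of all genes lower), 16 for UV-A in 1-SO (3.28%) and 14 for 1-S UV-A (6.59%). It called 3 for the interaction (0.827% of all genes negative) and 12 for 1-SO over 1-S in the dark (2.61% higher). limma called 11 for the interaction (1.59% of all genes negative). On its FPKM scale the median of all genes for UV-A in 1-SO shifted to 0.11, and 6.26% of genes were called lower and 8.6% higher, with 31 members lower and 0 higher. With the vehicle of the same round the counts were 15 for 1-SO UV-A, 1 for the interaction, 14 for 1-SO over 1-S in the dark and 3 under UV-A. The cause was not tested. DESeq2's size factors and no filter kept every count within 1.5 times, and a pseudocount of 0.1 gave medians of the log2 FPKM ratios within a round of -1.02 to 0.10, against -0.98 to 0.10 with 1. Signs of single genes were checked for 26 called results, in UV-A in 1-SO and in 1-SO UV-A over vehicle UV-A. All 26 kept their sign under the other models and filters, and all 26 lost their call without the block. Signs of single genes in the other comparisons and in the leave-one-out fits were not checked. The direction of the median for 1-SO dark, not called, moved with the vehicle used. Leaving out a vehicle library leaves no residual degrees of freedom, so only medians are given. Their lowest and highest values over these leave-one-out fits were -0.10 and 0.59 for 1-SO dark (highest without vehicle dark of round 1), -1.29 and -0.53 for 1-SO UV-A (lowest without vehicle UV-A of round 1), -1.57 and -0.80 for 1-S dark (lowest without vehicle dark of round 2), -0.86 and -0.31 for 1-S UV-A (highest without vehicle UV-A of round 2), and 0.68 and 1.39 for 1-SO over 1-S in the dark (highest without either dark vehicle). UV-A in 1-SO stayed at -1.06 to -1.05. The sequencing depth of 15.8 to 22.6 M reads limits POLA2 in round 2, at 10 to 63 reads. With 1 library per compound group, variation between compound wells could not be measured.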

Other observations

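Cell division genes took another course than replication genes in vehicle cells of round 1. Against vehicle dark of round 1, all 10 of these genes had a log2 fold change above 0 in vehicle UV-A (median 0.52, 1 of 10, KIF20A, called higher by edgeR's likelihood ratio test, where 0.126% of all genes were), while 43 of the 47 replication genes were below 0. KIF20A, a mitotic kinesin, had 48.2 FPKM in vehicle UV-A against 22.9 FPKM in vehicle dark, and PLK1, a mitotic kinase, 24.5 FPKM against 14.8 FPKM. In round 2, where the replication gene median was also above 0 (0.12), KIF20A had 37.8 FPKM against 34 and PLK1 24.4 FPKM against 18.6. In 1-SO UV-A the cell division genes were the lowest of round 1, at 12.2 FPKM for KIF20A and 7.61 FPKM for PLK1. All 10 were called lower than vehicle UV-A (median -1.27), where 7.04% of all genes were. Against the vehicle of round 1 all 10 were also called, where 4.92% of all genes were (median -1.35). The interaction of UV-A with 1-SO was called negative for 8 of 10 in the shared model, where 2.9% of all genes were, and for 9 of 10 within round 1, where 1.13% were, against 17 and 1 of the 47 replication genes.

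With 1-S over both lights, 8 of the 10 cell division genes were called lower, where 30.1% of all genes were, with a median of -0.45, against -0.86 for the replication genes. CDC20, which drives exit from mitosis, did not pass, with 111 and 96.9 FPKM in 1-S UV-A and 1-S dark, against 123 and 97.0 FPKM in vehicle UV-A and vehicle dark. Under UV-A, 4 of the 10 were lower with 1-SO than with 1-S, CDC20 by 1.44, KIF20A by 1.16, PLK1 by 1.06 and CCNB1 by 0.95, where 2.27% of all genes were called lower, whereas RRM2 was the single replication gene called and was higher. The part of the cell cycle in these changes was not tested.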
